A study of Mus musculus with 3 samples.

Results

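The cytosolic ribosomal protein genes encode the proteins of the ribosome that works in the cytoplasm. They were taken by name, as every gene called Rpsa or named Rpl, Rps or Rplp with a number and an optional letter suffix, provided that it had at least 1 transcript annotated as protein-coding in GENCODE M21. This gave 84 genes of the 55536 in the tables. Of these, 77 were core members, 46 of the large and 31 of the small subunit, and 7 were alternative paralogs (Rpl3l, Rpl7l1, Rpl10l, Rpl22l1, Rpl36al, Rpl39l and Rps27l). The symbols Rpl6l, Rpl32l, Rps4l and Rps12l1 fitted the name but had no protein-coding transcript and were left out. The 84 genes lay on 19 chromosomes, with 14 of them on chromosome 7.

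The samples were 3 total RNA-seq libraries of primary monocytes isolated from blood, from C57BL/6J mice that were adult (5 to 6 weeks of age) and of uncollected sex. The 3 libraries formed 1 group of replicates 1 to 3, with no genetic change, no agent and no contrast. They shared 1 donor record, and the labels used here do not say whether the cells came from separate animals, so the tests measure the spread between libraries, which may be technical. Each was made from 100 ng of RNA depleted of ribosomal RNA, with size ranges of 200 to 594, 200 to 491 and 200 to 1000 bp for libraries 1, 2 and 3.

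A ribosome holds 1 large and 1 small subunit, and nearly every ribosomal protein is present once in it, so that cells need these proteins in about equal numbers. Their messenger RNAs belong to the class that starts with a cytosine followed by a run of pyrimidines, the 5′ terminal oligopyrimidine (TOP) motif, through which the TOR kinase and the binding protein Larp1 control translation. Monocytes are blood phagocytes that leave the marrow as largely non-dividing cells and carry their ribosomes into the tissues. The genes are known for many processed pseudogenes, copies of the messenger RNA inserted elsewhere in the genome, which makes short reads hard to place.

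The start sites are shown because the TOP motif is the sequence feature by which the mRNAs of these genes are usually recognised. Windows of 30 bases centred on the annotated start were read from RefSeq promoter sequences (mouse build GRCm38.p6) for the 64 members that matched by symbol, and the other 20 had no entry. A cytosine followed by 4 pyrimidines (C or T) stood exactly at the start base in 13 of the 64 members, or 20.3%, against 2.97% of 26961 other genes and 2.80% of the 6575 other genes with at least 1 TPM (the length-corrected share of all transcripts that belongs to a gene). Capitals mark that cytosine and the 4 pyrimidines in the windows of 6 of these 13 members, which span their range of levels. The 3 all-lower-case windows at the end belong to highly abundant members whose annotated start did not carry the motif.
Rps27, chr3:90213634-90213663, minus strand: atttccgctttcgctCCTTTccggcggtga
Rplp2, chr7:141447636-141447665, plus strand: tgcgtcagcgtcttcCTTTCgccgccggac
Rps21, chr2:180257364-180257393, plus strand: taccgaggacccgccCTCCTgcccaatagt
Rps15a, chr7:118116133-118116162, minus strand: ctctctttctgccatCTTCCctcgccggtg
Rps6, chr4:86857353-86857382, minus strand: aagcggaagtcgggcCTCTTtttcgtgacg
Rpl28, chr7:4792950-4792979, plus strand: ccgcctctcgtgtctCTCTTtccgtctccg
Rps24, chr14:24490663-24490692, plus strand: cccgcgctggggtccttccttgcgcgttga
Rpl13a, chr7:45128731-45128760, minus strand: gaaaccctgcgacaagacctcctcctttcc
Rpl26, chr11:68901551-68901580, plus strand: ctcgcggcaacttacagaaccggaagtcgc

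Read instead from the most abundant GENCODE M21 transcript of the 83 members with one above 0 TPM, the letters began at the first base in 9 members, or 10.8%, against 2.36% of other protein-coding genes with at least 1 TPM, and lay within the first 15 bases in 34.9% against 17.3%. An annotated start can lie some bases from the start used in these cells, and the Rps24 and Rpl13a windows hold pyrimidine runs close to it. With the same letters allowed anywhere between 10 bases before and 15 after the start, 60.9% of the 64 members held them, against 34.3% of other genes and 37.5% of other genes with at least 1 TPM. The promoter windows, from 250 bases before to 50 after the start, were searched on both strands for further letters, each counted by itself also where matches overlapped. The ETS core CCGGAAG stood in 40.6% of the members, against 9.85% of the other genes and 24.0% of the expressed others. The YY1 core AANATGGCG stood in 10.9% of the members, against 2.74% and 7.25%. The GC box GGGCGG stood in 62.5% of the members, against 38.1% of the others and 70.0% of the expressed others. TATAAA was found in 10.9% of the members, against 15.7% and 8.44%. The start motif of the gene's own strand stood in members over most of the range of levels. The 13 core members with it had a median of 120 TPM (35.8 to 583), and the 44 matched core members without it had 137 TPM (27.4 to 423).

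The libraries held 27158565, 26541404 and 19917940 expected counts, of which the 84 members took 785499, 757781 and 410229 (2.89%, 2.86% and 2.06%). A core member had between 937 and 32456 expected counts in a library. TPM in these files is scaled over every annotated row, and the protein-coding genes held 9.84% to 10.9% of it, so 1 TPM here would be 9.16 to 10.2 TPM if protein-coding genes were the whole. Library 3 stood apart in its cell markers. The 8 monocyte markers, all above 1 TPM, summed to 1348 TPM in library 3 and to 2349 and 1952 TPM in libraries 1 and 2. Lyz2 (718 TPM in library 3, 1448 and 1238 TPM in libraries 1 and 2) and Ctss carried most of that difference, while 4 of the 8 were highest in library 3, among them Csf1r with 86.6 TPM there and 69.8 and 52.4 TPM in libraries 1 and 2. The 6 NK cell markers summed to 1416 TPM in library 3 and to 603 and 500 TPM in libraries 1 and 2, and the 6 platelet markers to 95.6 TPM in library 3 and to 15.3 and 10.97 TPM in libraries 1 and 2. Red cell markers went the other way, at 263 TPM in library 3 and 3533 and 3326 TPM in libraries 1 and 2. Neutrophil markers (9.44 TPM in library 3, 140 and 126 TPM in libraries 1 and 2) and basophil and eosinophil markers (4.22 TPM in library 3, 25.2 and 25.9 TPM in libraries 1 and 2) also had lower sums in library 3, with the defining Ly6g and Epx at 0 in every library. Most of the neutrophil sum was Retnlg (0 TPM in library 3, 124 and 114 TPM in libraries 1 and 2), and Csf3r was higher in library 3 (8.09 TPM, against 5.99 and 6.64 TPM in libraries 1 and 2). T cell markers summed to 5.11 TPM in library 3 and 2.51 and 2.96 TPM in libraries 1 and 2, and B cell markers to 80.7 TPM in library 3 and 90.6 and 90.2 TPM in libraries 1 and 2. The part of these other cells in the results on ribosomal protein genes was not tested, and in such bulk samples fewer cells of a type and less RNA per cell cannot be told apart.

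The ribosomal protein genes held 12.7%, 12.3% and 10.01% of the TPM of protein-coding genes in libraries 1, 2 and 3 (mean 11.7% ± 1.44, SD, n = 3). The lowest share was that of library 3, and without it the mean was 12.5%. The 78 mitochondrial ribosomal protein genes, which serve the separate ribosome of the mitochondrion, held 0.334%, 0.306% and 0.326%. The members are short, so their share of the expected counts of protein-coding genes was smaller, at 3.80%, 3.77% and 2.63%. Among the 100 most abundant protein-coding genes by mean TPM, 43 were members, and 20 were among the top 50, but Rps27 was the one member in the top 10. Of the 83 members with at least 10 summed expected counts, 81 lay above 1 TPM by edgeR's quasi-likelihood test (adjusted p under 0.05 over all genes tested), where 43.2% of the 17678 genes tested did and 54% of the protein-coding genes. No member was called below 1 TPM by edgeR, where 6.35% of all genes tested were. At an unadjusted p under 0.05 edgeR put no member there either, while limma on log2(TPM + 0.1) put Rpl39l below. All 77 core members were also above 10 TPM, a level that 9.53% of the genes tested passed.

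Although their proteins are needed in about equal numbers, the levels of the core members were spread over 21.3-fold, between 27.4 TPM for Rps26 and 583 TPM for Rps27, around a median of 140 TPM. Against the median core member of the same library, 21 core members were above, 20 were below and 36 passed neither way (edgeR, adjusted p under 0.05). That median comes from the same 77 members and enters the test as a fixed level. Similar numbers above and below therefore follow from the choice of reference. Since the reference level is itself high, 0.905% of all genes tested were above it and 97.3% below, and 0.446% of the protein-coding genes were above and 98.7% below. The large subunit had 12 members above and 13 below of 46, and the small subunit had 9 above and 7 below of 31. The order of the members was much alike in the 3 libraries: Pearson's r of log2 TPM over the 77 core members was 0.935 for libraries 3 and 1, 0.906 for 3 and 2 and 0.965 for 2 and 1, a description over genes that share each library and its annotation. Rpl7, Rpl13a, Rpl26, Rpl34, Rplp1, Rps3a1, Rps24 and Rps27 were among the 10 highest core members in every library. Rpl10a, Rpl27a, Rpl28, Rpl31, Rpl35 and Rps26 were among the 10 lowest in every library. Leaving out library 3 gave 28 members above and 30 below, with all 21 and all 20 kept, while leaving out library 1 gave 14 and 16 and leaving out library 2 gave 16 and 17.

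**Figure D1:**
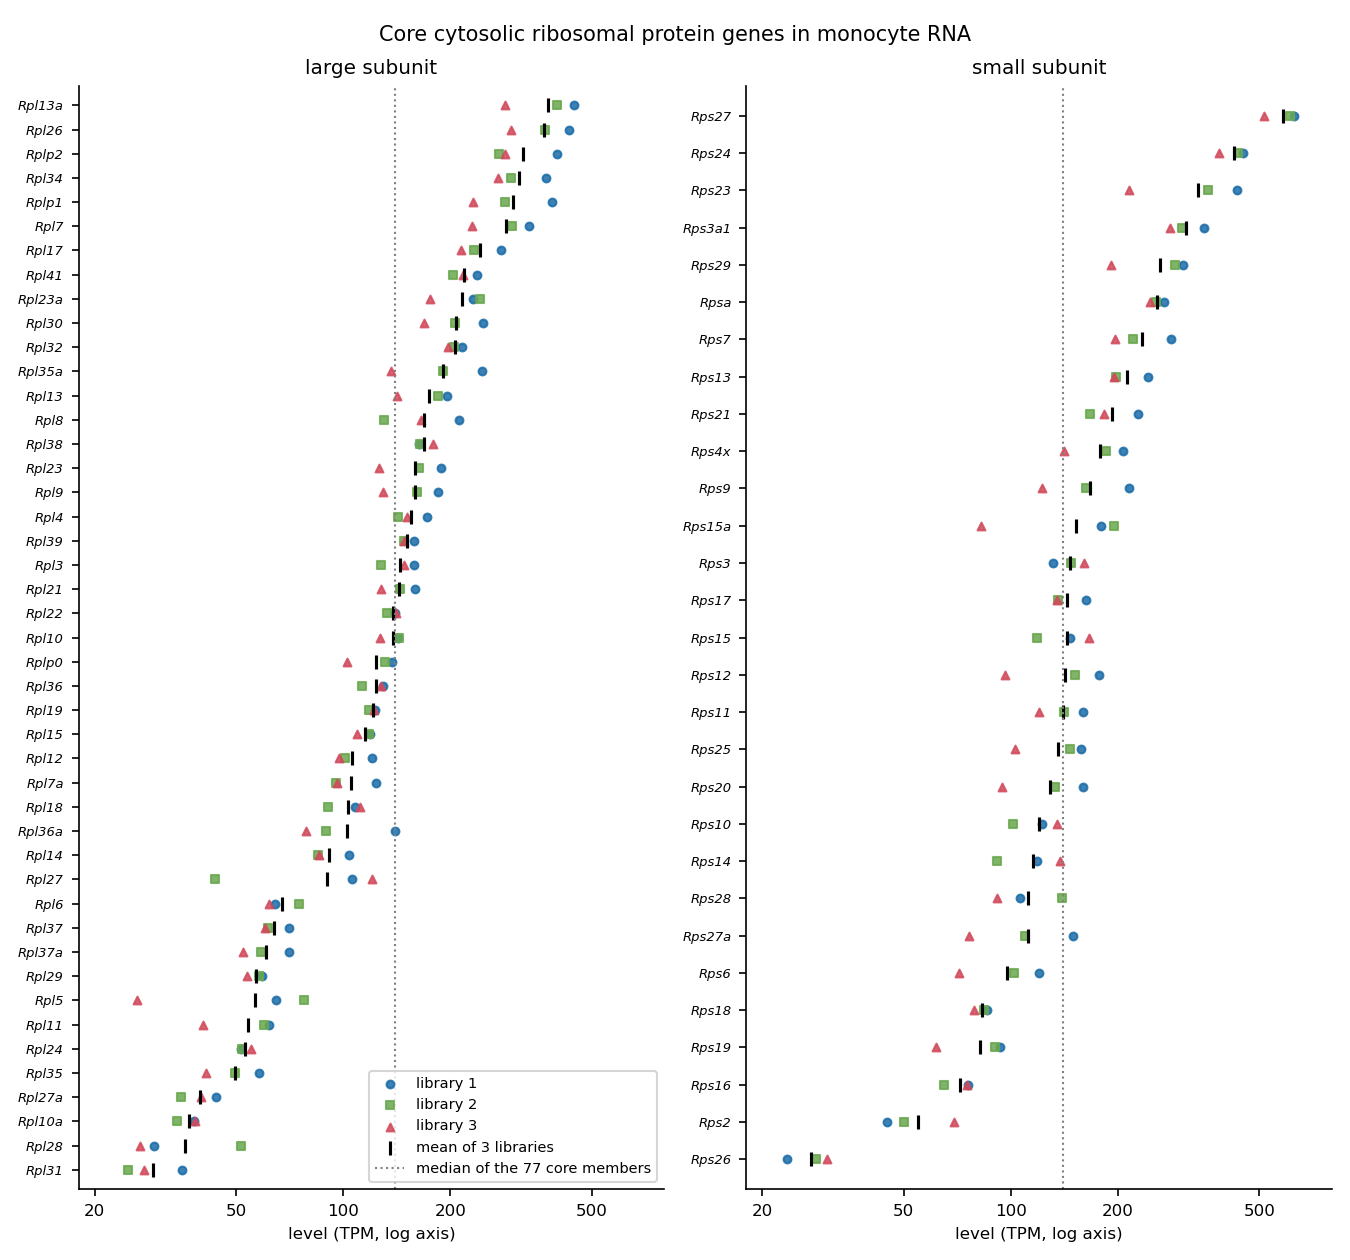
Level of each core ribosomal protein gene in TPM (log axis), with 1 point per library, a bar at the mean, a dotted line at the core median and the genes ordered within each subunit (a few core genes are not drawn). The genes spread to both sides of the core median of 140 TPM, with Rps27 at the top (583 TPM) and Rps26 at the bottom (27.4 TPM). The points of library 3 often lie below those of libraries 1 and 2.

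In the large subunit, the proteins of the stalk, the arm that recruits the elongation factors, were not level with each other. Rplp0 (chr5:115559467-115563727, plus strand), which anchors the stalk, had 137, 131 and 102 TPM in libraries 1, 2 and 3. The acidic proteins bound to it, of which each ribosome carries more than one copy, were higher. Rplp1 had 386, 286 and 231 TPM and was 2.16-fold the core median (edgeR adjusted p = 7.81e-05). Rplp2 had 398, 275 and 286 TPM and was 2.30-fold the median (edgeR adjusted p = 3.79e-05). In every library both lay above Rplp0, which itself was 0.89-fold the median (edgeR adjusted p = 0.345, between 0.0355 and 0.617 over the alternatives tried).

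Rpl5 and Rpl11 bind the 5S ribosomal RNA and, outside the ribosome, the p53 regulator Mdm2. Rpl5 (chr5:107900502-107909005, plus strand) had 64.7, 77.8 and 26.4 TPM, with library 3 far under the other two, and Rpl11 (chr4:136028265-136053428, minus strand) had 61.9, 59.7 and 40.4 TPM. Both were below the core median, at 0.40-fold for Rpl5 (edgeR adjusted p = 0.00197) and 0.39-fold for Rpl11 (edgeR adjusted p = 0.000327). For Rpl5 this held only for reads given to the gene itself, because most of its signal stood under a pseudogene described further on. Rpl3 and Rpl10, which reach towards the catalytic centre, were close to the middle. Rpl3 had 158, 127 and 149 TPM and Rpl10 had 143, 144 and 127 TPM, at 1.05-fold and 1.00-fold the median.

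The most abundant large-subunit messages were those of Rpl13a and Rpl26. Rpl13a (chr7:45125558-45128761, minus strand), whose protein is released from the ribosome in interferon-treated human monocytic cells to silence inflammatory messages, had 445, 399 and 286 TPM, with library 3 the lowest. It was 2.70-fold the core median (edgeR adjusted p = 6.01e-06). Rpl26, at the rim of the exit tunnel, had 431, 369.9 and 297 TPM and was 2.63-fold the median (edgeR adjusted p = 6.29e-06). Rpl34 and Rpl7 averaged 313 ± 52.3 and 287 ± 52.0 TPM (SD, n = 3). Rpl41, which encodes the shortest of these proteins, had 237, 203 and 217 TPM, at 1.59-fold the median (edgeR adjusted p = 0.00372), and without library 1 its adjusted p was 0.0537. Rpl38, needed in the mouse for translation of Hox messages, had 164, 164 and 179 TPM and did not pass (1.23-fold, edgeR adjusted p = 0.16).

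At the low end of the large subunit, Rpl31 (chr1:39367842-39371911, plus strand), another protein at the tunnel exit, had 35.1, 24.7 and 27.4 TPM. That was 0.21-fold the core median (edgeR adjusted p = 2.11e-05). Rpl10a (38.1, 34.2 and 38.4 TPM), Rpl27a (43.8, 34.9 and 39.9 TPM) and Rpl24 (51.7, 51.8 and 55.1 TPM) were low in all 3 libraries. Rpl10a had a coefficient of variation of 6.40% and Rpl27a of 11.3%, and 6.28% and 15.2% with their relatives summed in. Rpl24, whose mutation gives the mouse belly spot and tail phenotype, had a coefficient of variation of 3.62%, but 6.31% with its relatives summed in. Rpl28 was uneven, at 29.3, 51.4 and 26.8 TPM, but under the core median in each library. Its coefficient of variation was 37.8%, and 23.7% with its relatives summed in. Its effective length was 403, 301 and 460 bases in libraries 1, 2 and 3, and the part of that in the unevenness was not tested. Rpl27 (chr11:101442298-101445529, plus strand) was also uneven, with 106, 43.6 and 120 TPM, so that libraries 1 and 3 were high and library 2 low. Its difference from the median did not pass (0.66-fold, edgeR adjusted p = 0.0726). Also among the most even core members were Rpl19, which reaches across to the small subunit, at 123, 118 and 122 TPM (2.16%, but 8.60% with its relatives summed in), Rpl22, which is needed for T cell development in the mouse (140.1, 133 and 141 TPM, 3.11%), and Rpl39 (158, 148 and 148 TPM, 3.66%).

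In the small subunit, Rps27 (chr3:90212522-90213651, minus strand), a zinc-finger protein, was the most abundant member of all, with 625, 610.2 and 514 TPM. It was 4.22-fold the core median (edgeR adjusted p = 2.21e-06) and led the core members in every library. It also had the shortest effective length of the core members, 174 bases, and in the authors' tables on the older GENCODE M4 annotation it averaged 295 TPM and ranked 8. Rps24 (chr14:24487125-24496959, plus strand) had 449, 436 and 384 TPM, 3.06-fold the median (edgeR adjusted p = 2.21e-06), and ranked 1 with M4 and 2 here. Rps23 (chr13:90922958-90924950, plus strand), a protein of the decoding centre, had 433, 359 and 215 TPM and was 2.40-fold the median (edgeR adjusted p = 4.05e-05), with library 3 at the bottom. Rps3a1 had 348, 302 and 281 TPM. Rpsa, also known as the laminin receptor, had 269, 256 and 246 TPM and was 1.87-fold the median (edgeR adjusted p = 0.000108), but not with the M4 tables (edgeR adjusted p = 0.263).

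Some small-subunit proteins with roles outside the ribosome or in disease lay at or under the middle, while others, such as Rpsa, lay above it. Rps3, at the mRNA entry channel and also found at sites of DNA repair, had 132, 147 and 160.4 TPM and did not pass (1.07-fold, edgeR adjusted p = 0.582). Rps27a, which is made fused to ubiquitin and so is one source of that protein, had 149, 109 and 76.3 TPM, at 0.80-fold (edgeR adjusted p = 0.155). Rps14, encoded in the region lost in the human 5q- syndrome, had 118, 91.4 and 137 TPM, with library 3 the highest, at 0.85-fold (edgeR adjusted p = 0.292). The effective length of Rps14 was shortest in library 3 (337 bases, against 397 and 416 in libraries 1 and 2), and its part was not tested. Rps6 (chr4:86854660-86857412, minus strand), the target of the S6 kinases, had 120.0, 102 and 71.3 TPM. It was 0.70-fold the median (edgeR adjusted p = 0.0321), a call that ended without library 1 (edgeR adjusted p = 0.138) or without library 2 (edgeR adjusted p = 0.146). Rps19 (chr7:24884371-24889806, plus strand), the gene most often mutated in human Diamond-Blackfan anaemia, had 93.2, 90.4 and 61.8 TPM, at 0.59-fold (edgeR adjusted p = 0.00705, and 0.067 without library 1).

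Rps26 (chr10:128624534-128626747, minus strand), at the mRNA exit and also a Diamond-Blackfan gene, was the lowest core member, with 23.5, 28.3 and 30.4 TPM. It was 0.20-fold the core median (edgeR adjusted p = 3.91e-05), and library 3 was here the highest. With the M4 annotation Rps26 averaged 43.8 TPM and ranked 72 among the core members, so it was not the lowest there. Rps2, with 44.9, 50.01 and 69.0 TPM, and Rps16, whose tail reaches the P-site tRNA, with 75.9, 64.8 and 75.3 TPM, were also below the median, at 0.40-fold and 0.52-fold. Rps15a had the highest coefficient of variation of the small subunit, 39.96%, with 179, 195 and 82.5 TPM and library 3 far below the other two. Its effective length, by which TPM is corrected, was 402, 342 and 610 bases in libraries 1, 2 and 3. The part of that length in its low TPM in library 3 was not tested. Rps15 (146, 119 and 165 TPM) and Rps10 (122, 102 and 135 TPM) were highest in library 3 and near the median.

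As groups, the large-subunit members lay slightly under the small-subunit members. The median levels were 141, 130 and 127 TPM for the large subunit and 159, 141 and 122 TPM for the small subunit in libraries 1, 2 and 3. The difference of their mean log2(TPM + 0.1) values, large minus small, was -0.23, -0.27 and -0.20 (mean -0.23 ± 0.03, SD, n = 3). By medians in place of means it was -0.08 ± 0.12, and library 3 had the large subunit higher. When each member was summed with its near-identical relatives, the difference of means was -0.01 ± 0.02.

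These relatives bear on many of the levels above. A relative is here a gene outside the members with at least 95% sequence identity to a member's transcript over at least 50% of the shorter of both. There were 667 of them, 653 annotated as pseudogenes (processed and unprocessed counted together) and 13 as protein-coding. Of the 77 core members, 76 had at least 1. The median was 6 and Rpl21 had the most, 63. Of the relatives, 26 were identical to a member over their whole length, 236 had no counts and 40 averaged at least 10 TPM. Reads from an identical copy and from the member cannot be told apart, so the tables' division between them is an estimate. The median core member had 5.23% of the summed TPM on its relatives, 14 core members had less than 1%, 34 had more than 10% and 11 had more than 50%.

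Rpl5 was the extreme case. Gm15500, a processed pseudogene identical to Rpl5 (chr7:114705217-114706235), was given 502, 389 and 387 TPM, and with all 8 relatives the sum was 567, 467 and 414 TPM, of which 88.5% ± 5.14 (SD, n = 3) stood on the relatives. The sum averaged 483 ± 78.0 TPM and ranked 3 among the core members, against rank 68 for Rpl5 alone. It was 2.82-fold above the median core sum (edgeR adjusted p = 9.75e-07), so the call of Rpl5 turned from below to above. Rps6 turned in the same way. Its pseudogene Rps6-ps4 averaged 171 ± 7.66 TPM, and the sum of 299.7, 267 and 242 TPM was 1.58-fold the median (edgeR adjusted p = 0.00223).

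Rps23 with its relatives averaged 678 ± 143 TPM and became the most abundant member, since Rps23-ps1 was given 347, 368 and 298 TPM. Rpl31 (189 ± 46.2 TPM summed, with Rpl31-ps8 at 163, 204 and 111 TPM), Rpl27a (188 ± 28.6 TPM summed, with Gm7536) and Rpl35 (171 ± 29.4 TPM summed, with Gm2000, a copy annotated as protein-coding) moved to the middle, as did Rpl37a. Rps12 passed upwards with its relatives (1.76-fold, edgeR adjusted p = 0.00131), among them Rps12l1, at 195, 80.3 and 98.8 TPM. Rps28, Rpl36a, Rpl19 and Rpl21 likewise moved above the median sum, and Rplp0, Rpl15, Rpl18 and Rpl7a fell below it. In all, 24 core members were above the median sum, 18 below and 35 neither (0.769% and 97.7% of the 17435 genes then tested were above and below). Rpl30, Rpl32, Rpl35a and Rps21 were no longer above, 17 members stayed above, and 14 stayed below, among them Rpl11, Rps2, Rps19 and Rps26. These sums were set up after the data had been seen.

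The unevenness between libraries changed both ways when the relatives were added. The coefficient of variation of Rpl27 over the libraries was 9.35% summed and 45.3% alone, that of Rpl5 was 16.2% summed and 47.5% alone, and that of Rps6 was 10.8% summed and 25.2% alone. Rpl27 shared its signal with Rpl27-ps3 and Gm11518, 2 identical copies that were each given exactly 41.4, 61.9 and 40.6 TPM, high in library 2 where Rpl27 itself was low. Over the 11 members with more than 50% on relatives, the median coefficient was 17.1% summed and 25.2% alone, and it was lower summed in 6 of the 11, beside 40 of all 77. It was higher summed for Rpl31 (24.4% summed and 18.5% alone), Rpl37a (22.4% summed and 15.1% alone) and Rps12 (34.1% summed and 28.96% alone). Over all 77 core members the median was 15.2% both ways, and Rps15a kept 36.4% summed and 39.96% alone. Summing left the span of the levels at 21.8-fold.

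**Figure D2:**
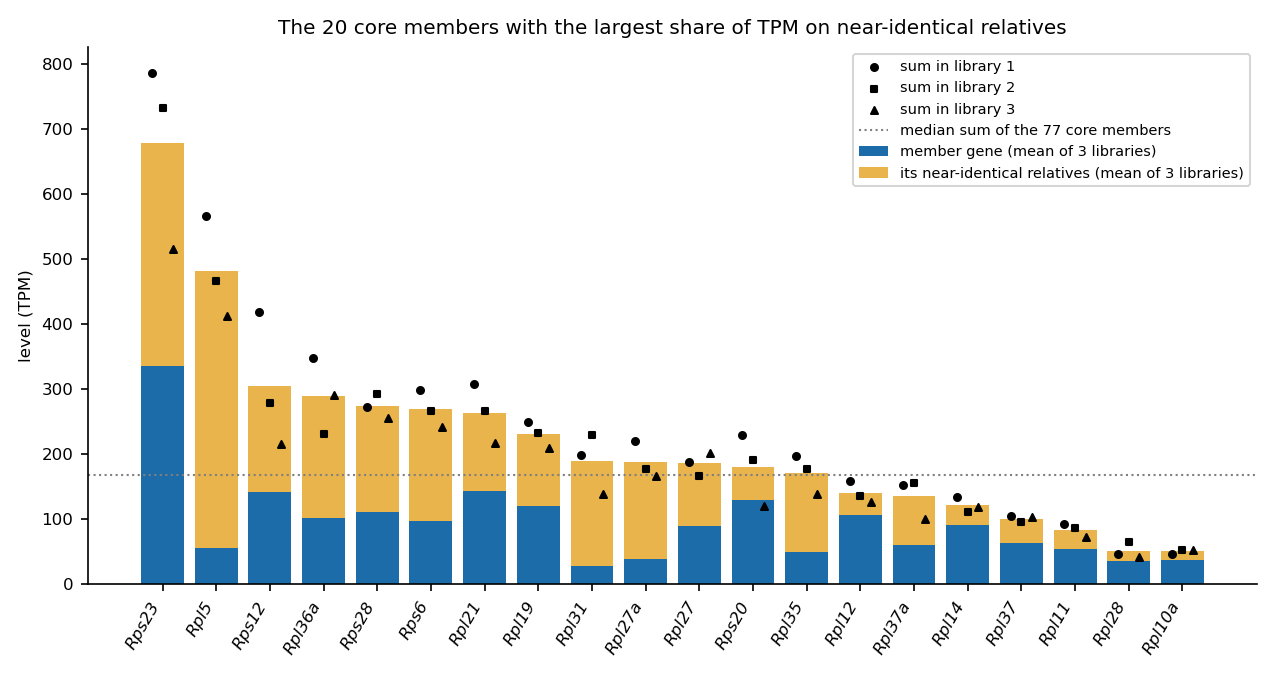
Level given to the member itself and to its near-identical relatives, in TPM averaged over the 3 libraries, for the 20 core members with the largest share on relatives, with points for the sum in each library and a dotted line at the median core sum. For Rpl5 88.5% of the summed level stands on relatives, and for Rps23 the relatives hold 51.4%.

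The authors' second quantification of the same libraries, at transcript level, allowed a check of this division. Summed per gene, its TPM was a median 1.51 times that of the gene tables for the core members, beside 1.92 times for protein-coding genes with at least 1 TPM, so that only relative levels compare. For single members the ratio lay between 0.0951 and 2.58. Rpl12 had 10.1 TPM in the second quantification and 106 TPM in the gene tables, and Rps12 had 43.0 and 142 TPM. Pearson's r of log2 levels between the quantifications was 0.846 over the 77 core members alone and 0.980 when each was summed with its relatives, both as descriptions over genes of the same reads. With the sums the ratio lay between 1.10 and 2.30. The annotation mattered for a few members: Rpl27 averaged 6.01 TPM with GENCODE M4, against 90.01 TPM with M21.

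The 7 alternative paralogs were under their parents in every library. Rpl36al, the paralog of Rpl36a, was the highest, with 81.4, 60.8 and 59.6 TPM, against 140, 89.2 and 78.7 TPM for Rpl36a. Rpl22l1, which can replace Rpl22 in the ribosome, had 14.2, 16.3 and 16.8 TPM, against 140.1, 133 and 141 TPM for Rpl22. Rps27l, a p53 target gene, had 9.44, 10.8 and 7.21 TPM, against 625, 610.2 and 514 TPM for Rps27, and Rpl7l1 had 12.7, 8.20 and 9.07 TPM, against 333, 298 and 231 TPM for Rpl7. These 4 paralogs passed the test of 1 TPM.

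The other 3 are known from striated muscle and testis. Rpl3l, the muscle form of Rpl3, had 1.53, 0.96 and 0.48 TPM from 147, 102 and 31 counts, lowest in library 3, and could not be set apart from 1 TPM (edgeR adjusted p = 0.984). Rpl39l, known from male germ cells, had no counts in libraries 1 and 2 and 10 in library 3 (0.21 TPM), where a count of 0 allows up to 0.0532 and 0.0479 TPM in libraries 1 and 2. Rpl10l, which stands in for the X-linked Rpl10 during mouse meiosis, had no counts in any library, which allows up to 0.0315, 0.0287 and 0.0472 TPM by counting error alone (3 counts per library). Of the 6 paralogs tested, all were below the core median, as were 97.3% of all genes tested.

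**Figure D3:**
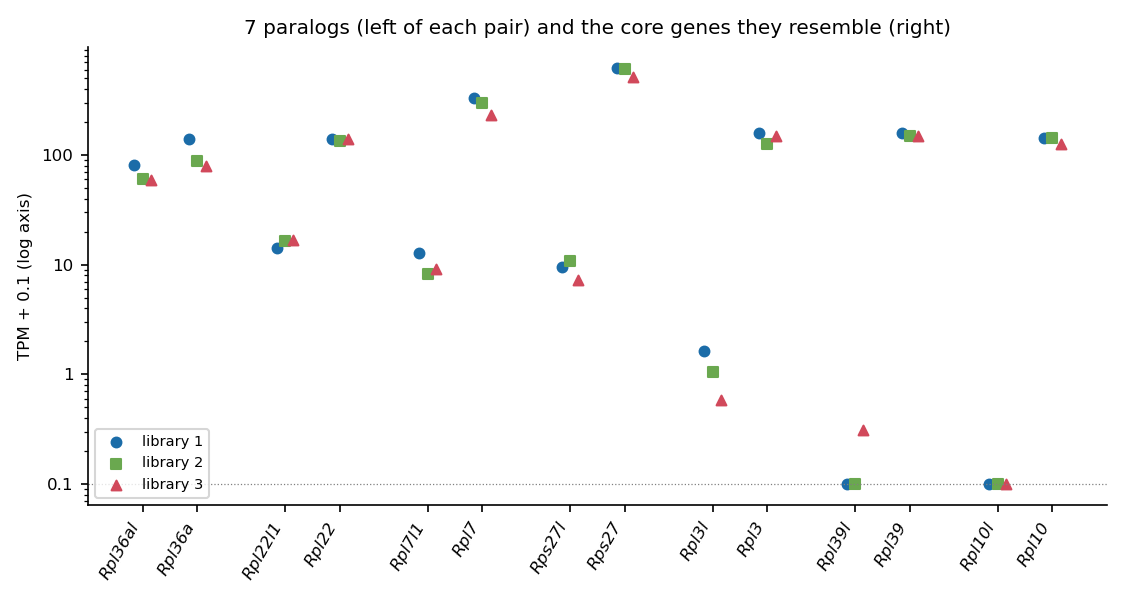
Level of each alternative paralog left of the core gene it resembles, as TPM + 0.1 on a log axis, with 1 point per library and the dotted line at 0 TPM. Rpl36al lies nearest to its parent, Rpl22l1, Rpl7l1 and Rps27l lie at 7.21 to 16.8 TPM, and Rpl10l has no counts.

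The 84 members had 501 annotated transcripts, 235 of the biotype protein_coding, 176 retained_intron, 65 processed_transcript and 25 nonsense_mediated_decay. In the second quantification, transcripts other than protein_coding held 15.8%, 16.3% and 15.5% of the members' TPM (mean 15.9% ± 0.40, SD, n = 3). The other 8217 protein-coding genes with at least 1 TPM had 29.6% ± 3.28 on such transcripts. By biotype, the members' TPM stood at 84.1% on protein_coding, 9.14% on retained_intron, 3.64% on processed_transcript and 3.08% on nonsense_mediated_decay transcripts. These are labels of GENCODE M21, and short reads place a transcript only where it differs from its neighbours.

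The members' share came from few genes. Of the 77 core members, 49 had under 10% on transcripts that were not protein_coding, among them the abundant Rps27 (1.58%) and Rps24 (0.778%), while 11 had over 50%. Rps20 had 97.1%, 96.6% and 95.1%, of which 1 transcript labelled retained_intron held 87.1% of the gene. Rpsa had 92.1%, 88.8% and 93.3%, with 84.7% on 1 transcript labelled nonsense_mediated_decay. Rps26, the lowest core member by the gene levels above, had 83.7% ± 3.58 and Rps23 had 82.4% ± 2.75 (SD, n = 3). Rps16 had 78.8% ± 4.40 and Rpl13a had 76.1% ± 5.67 (SD, n = 3). Rpl15, a Diamond-Blackfan gene, had 64.0%.

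The transcript tables that belong to the gene quantification gave these 7 genes over 50% as well, with 85.2% for Rpsa and 72.5% for Rps16. Rpl12 was over 50% in both, but 17.0% of the gene stood on its nonsense_mediated_decay transcript in the second quantification and 87.4% in the gene quantification. Rpl23 had 83.8% in the second quantification and 7.52% in the gene quantification, and Rps12 had 48.7% and 12.6%. Among protein_coding transcripts too the tables divided reads unlike each other: the leading Rps24 transcript of the second quantification held 87.2% of the gene there and 31.8% in the gene quantification, where another held 50.3%.

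**Figure D4:**
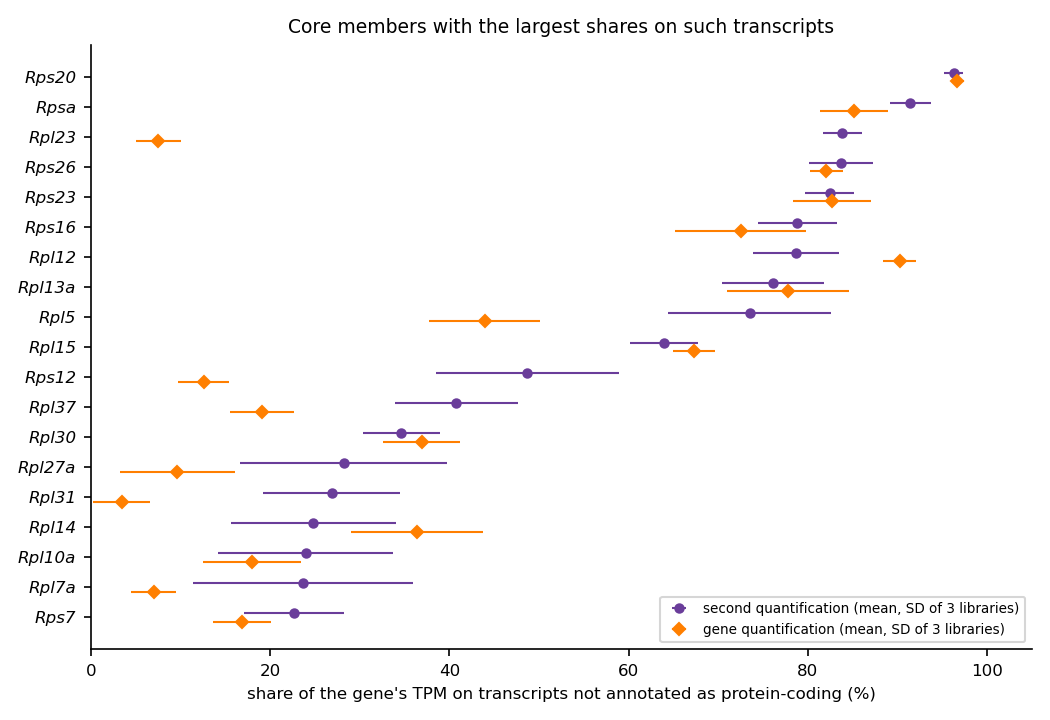
Share of each gene's TPM on transcripts of a biotype other than protein_coding, in percent, for the core members with the largest shares, in the second quantification and in the transcript tables of the gene quantification (mean and SD of 3 libraries). Rps20 (96.3%) and Rpsa (91.4%) are high in both, and Rpl23 is high in the second quantification alone.

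In library 3 the members were low beside other genes. The log2 ratio of library 3 over the mean of libraries 1 and 2, on the log2(TPM + 0.1) scale, had a median of -0.20 over the 77 core members, of which 60 were lower in library 3. Over 8302 protein-coding genes with at least 1 TPM the median was 0.27, and 30.3% of them were lower in library 3. Over the 2076 protein-coding genes with at least 10 TPM, nearer in level to the members, the median was 0.09 and 42.0% were lower, so the core members lay -0.30 from these. After rescaling the libraries with edgeR's TMM factors the medians were -0.53 for the core members, with 74 of 77 lower, and -0.05 for the protein-coding genes, and with DESeq2 size factors they were -0.55 and -0.07. The core members lay -0.47 from the median protein-coding gene of at least 1 TPM on the TPM scale, with 73 of 77 under that median. Rescaling moves all genes of a library by 1 factor, so it leaves the gap between sets of genes nearly fixed. The gap of -0.48 with either rescaling, again with 73 of 77 under the median, is therefore no separate check. The 74 mitochondrial ribosomal protein genes with at least 1 TPM had a median of 0.03. With 1 library on a side this has no replicate check, and the marker sums above differed between the same libraries.

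Library 2 also differed from library 1, where the core median was -0.20, but the protein-coding genes moved as much (-0.16). For library 3 over library 1 the core median was -0.31 beside 0.21 for the protein-coding genes, and for library 3 over library 2 it was -0.11 beside 0.37. Among the core members, the lowest was Rpl5 (-1.43), with 26.4 TPM in library 3 against 64.7 and 77.8 TPM in libraries 1 and 2, but summed with its relatives Rpl5 had -0.32. Rps15a (-1.18), Rps23 (-0.88), Rps12 (-0.77) and Rps27a (-0.76) followed. Of the core members, 17 were higher in library 3, led by Rpl27 (0.69, but 0.18 with its relatives summed in), Rps2 (0.54), Rps14 (0.39), Rps15 (0.32) and Rps10 (0.27). Effective length differed between libraries 1, 2 and 3 for Rps15a (402, 342 and 610 bases) and Rps14 (397, 416 and 337 bases). Rps27a, lower in library 3, had its shortest length there (506 bases, against 527 and 529 in libraries 1 and 2). The part of length in these ratios was not tested. Among the scarce paralogs, Rpl3l had -1.21, from fewer counts than any core member, and Rpl39l had 1.63, from very few counts. With the relatives summed in, the core median was -0.22 and 60 of 77 were lower, so the shift was as large with them.

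**Figure D5:**
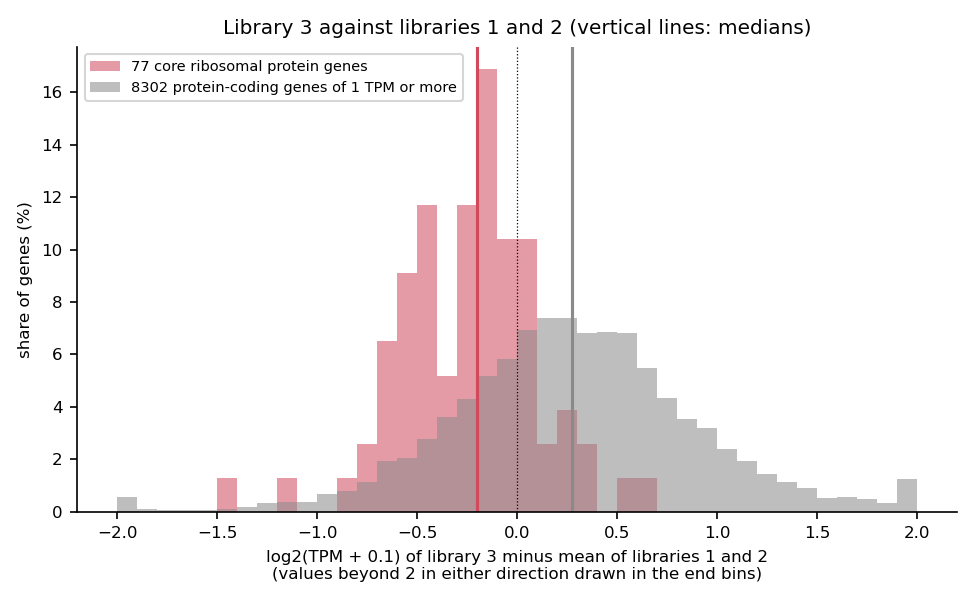
Histogram of the log2 ratio of library 3 over the mean of libraries 1 and 2 (horizontal axis) as the share of genes in percent, for the 77 core ribosomal protein genes and 8302 protein-coding genes of at least 1 TPM, with vertical lines at the medians. The core members centre on -0.20 and the protein-coding genes on 0.27.

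Fau and Rack1, which are among the ribosomal proteins that the name rule leaves out, had levels in the range of the core members. Fau, which encodes the small-subunit protein eS30 fused to a ubiquitin-like protein, had 319, 221 and 280.3 TPM and was 1.98-fold the core median (edgeR adjusted p = 0.000232). Rack1, a scaffold on the small subunit, had 143, 135 and 103 TPM and passed neither way (0.91-fold, edgeR adjusted p = 0.477).

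The rest of the translation machinery was mostly well under the ribosomal proteins. Of 9 elongation factors and partners, all were above 1 TPM, 2 were above the core median and 5 below. Eef1a1, which brings tRNA to the ribosome, had 669, 661 and 698 TPM and Tpt1, itself a TOP message, had 220, 188 and 157 TPM, while Eef2, the translocase, had 108, 101 and 129.6 TPM and passed neither way. All 26 initiation factors were above 1 TPM, with the helicase gene Eif4a2 (191, 152 and 209.9 TPM) above the core median and 25 below, down to Eif5b at 2.68 TPM.

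Of 30 ribosome biogenesis genes, 24 were above 1 TPM and all 30 were below the core median, between Npm1, the nucleolar chaperone nucleophosmin, at 81.4 TPM and Gar1 at 0.62 TPM. The TOR and TOP control genes had 9 of 11 above 1 TPM and all 11 below the core median, with Rheb, the activator of TOR, at 10.8 TPM, Larp1 at 3.72 TPM and Myc at 0.73 TPM. Of 7 genes of ribosome quality control and the p53 link, 6 were above 1 TPM, with Mdm2, the partner of free Rpl5 and Rpl11, at 16.9 TPM and Trp53 at 2.10 TPM. Of the 78 mitochondrial ribosomal protein genes, 59 were above 1 TPM and all were below the core median, with a median of 3.29 TPM. Against these counts stand the 43.2% of all genes tested that were above 1 TPM and the 97.3% below the core median.

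The core members shared a compact build. Their effective length had a median of 506 bases, from 174 for Rps27 to 1363 for Rpl5, against 2085 bases for other protein-coding genes with at least 1 TPM, and their genes spanned 3289 bases against 24572. Over the 77 core members, Spearman's rho of TPM with effective length was -0.29, and -0.17 for the sums with relatives, a description of genes that share the same TPM scaling. Many members also carry small nucleolar RNA (snoRNA) genes, guides for modification of ribosomal RNA that are commonly cut from introns of such hosts. Of 1507 annotated snoRNA genes, 58 lay inside 30 core members, so 39.0% of the core held at least 1, against 1.73% of 8221 other protein-coding genes with at least 1 TPM.

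Rpl4 held 5 snoRNA genes and Rpl13a held 4. Counts were recorded for 32 of the 58 and summed to 14054, 28739 and 3626 in libraries 1, 2 and 3, with Rpsa (5665, 11692 and 795) and Rps3 (4130, 10160 and 1578) giving the most. By these counts, which were not scaled to depth, library 2 was the highest in 19 and library 3 the lowest in 19 of the 22 hosts with counts. Library 3 also had the smallest total (19917940 expected counts, against 27158565 and 26541404 in libraries 1 and 2). The gap was narrow in some hosts, such as Rpl27a (520, 460 and 400 in libraries 1, 2 and 3), and wide in others, such as Rpsa. The order in the narrow ones can therefore depend on depth. Library 2 had the narrowest and library 3 the widest size range. The part of depth and of the size range in the snoRNA counts was not tested. Core members with a snoRNA gene had a median of 145 TPM and those without had 123 TPM.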

How the data were processed

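Total RNA-seq of 3 monocyte libraries of 1 group was analysed. The authors deposited expected counts, effective lengths and TPM per gene and per transcript for GENCODE M21 and M4, and a second set of M21 transcript TPM and estimated counts with transcript biotypes (build mm10, per the labels). The sources used here do not name the programs or the strand setting; overlapping and antisense genes may share reads. The second set gave isoform shares and a check of levels. The members and lists were chosen with earlier results of these data known.

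Each gene with a summed expected count of at least 10 was tested, on counts rounded to whole numbers, against 1 TPM, 10 TPM or the median core member of its library with edgeR 4.0.16 (quasi-likelihood, intercept only, offsets from effective length and the authors' TPM scale, R 4.3.3), adjusted by Benjamini-Hochberg over all genes tested at 0.05. The test was checked on simulated data. DESeq2 1.42.0 and limma 3.58.1, on log2(TPM + 0.1) or log2(TPM + 1), were alternatives, with M4, other count minimums, rescaled libraries and each library left out. Relatives were found with BLAST 2.17.0 among M21 transcripts.

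Named members were the 10 highest and 10 lowest core members by mean TPM, the 5 with the highest and the 5 with the lowest coefficient of variation, all paralogs, the 5 highest and 5 lowest by the ratio of library 3, the 10 highest by share on transcripts that are not protein_coding and by share on relatives, and members with known roles (stalk, 5S partners and others). Members named only because a call changed with the relatives, and Larp1, Trp53 and Rpl4, were chosen after their values were seen. No row without a gene entered the tests. Every depth is an expected-count total; intervals and floors cover counting error only. A few ribosomal protein genes are counted but not reported here by name.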

Additional observations from a re-analysis of the deposited data

How the results depend on the processing

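No paired analysis was possible because the libraries form 1 group with no comparison between groups. The 81 members above 1 TPM stayed at 81 with each library left out, DESeq2, limma, the M4 tables, other count minimums and rescaled libraries; 82 passed on the protein-coding scale and 79 passed 10 TPM. Members above and below the core median numbered 20 to 22 and 20 to 26 under those tools, tables and filters, 24 and 18 with relatives summed, and 14 to 28 and 16 to 30 with 1 library left out. The members' share of protein-coding TPM was 11.1% to 12.5% with 1 library left out, 9.45% in the second quantification, 14.2% with relatives and 3.40% by expected counts. Large minus small was -0.25 to -0.21 with 1 library left out, -0.00630 with relatives and -0.0762 by medians. The share on transcripts that are not protein_coding was 15.7% to 16.1% with 1 library left out and 14.98% in the gene quantification's transcript tables. With relatives summed, some log2 levels against the core median changed sign, as the reads of copies then entered both the member and the median. Among core members with a call alone, these were Rpl5 (1.497), Rps6 (0.66), Rpl31 (0.15), Rpl27a (0.14) and Rpl35 (0.0029). Members without a call alone changed sign in both directions, such as Rpl36a (-0.45 alone and 0.77 summed) and Rps3 (0.10 alone and -0.19 summed). Of 484 other values for 54 named members, 454 kept their call and 30 did not; the causes were not tested. Depth limits Rpl39l and Rpl10l. Elsewhere the division of reads between copies is an estimate and library 3 is unlike the others, and the part of either in the precision was not tested.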
